A study of Homo sapiens with 1 sample.

Results

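The peaks described here are the 205 of 913 ChIP-seq peaks of the Zbtb21K419/845R library that lie on chromosomes 1 and 10 of the human genome (GRCh38), 118 on chromosome 1 and 87 on chromosome 10. They were chosen by chromosome, and the chromosomes were selected on their number of peaks for their length, so the density of each whole chromosome is given as a description and was not tested. No line was left out on its score, fold or p-value. The median q-value (p-value adjusted for the number of tests) of the 205 peaks was 0.776. Of them, 6 (2.93%) had a q-value of at most 0.05, against 2.96% of the whole list. Most lines are thus called peaks here without being established sites of binding. The library came from HEK293T cells, a human embryonic kidney line, and is labelled with the genotype Zbtb21K419/845R. In this zebrafish Zbtb21, both SUMO acceptor lysines were mutated to arginine. The authors expressed zebrafish Zbtb21 in HEK293T cells from transfected plasmids and report that these cells also contain human ZBTB21. The antibody is not named in the sources used here. ChIP-seq recovers the DNA to which a protein is crosslinked, and a peak is a place where more fragments were recovered than the local background predicts. Chromatin was sheared to fragments of 200 to 500 bp on average. There was 1 library without a replicate. Neither wild type Zbtb21 nor a control library was analysed here. No difference between conditions can therefore be given, and the intervals below are exact 95% intervals for counting error only.

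Zbtb21 belongs to the BTB zinc finger family, transcription factors that contact DNA through zinc fingers and contact each other, or partner proteins, through a BTB domain. SUMO is a small protein that is attached to lysines of many transcription factors. Each human chromosome has a short (p) and a long (q) arm on either side of the centromere, and along the arms Giemsa staining gives light bands, rich in genes, and dark bands, poor in genes. HEK293-derived lines carry extra copies of some chromosome segments. No copy number data of these cells were used here, so whether gained segments coincide with the stretches below was not tested.

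Of the 205 peaks, 3 overlapped a promoter window of the RefSeq table (250 bases before to 50 bases after a gene start, GRCh38.p14), and each of the 3 starts belonged to a long non-coding RNA gene. The 3 were 1.46% of the peaks (0.303 to 4.22%), an interval that includes the 0.627% of the length that such windows take up when widened by the median peak length. These windows are the places where the sequence at a peak can be shown, printed 5′ to 3′ on the strand of the gene, with the bases inside the peak in capitals. They are the window of LOC124903888 at chr1:30710130-30710429 (minus strand), that of LOC105378650 at chr1:37767267-37767566 (minus strand), and that of TRIM11-AS1, antisense to the ubiquitin ligase gene TRIM11, at chr1:228394040-228394339 (plus strand).
LOC124903888: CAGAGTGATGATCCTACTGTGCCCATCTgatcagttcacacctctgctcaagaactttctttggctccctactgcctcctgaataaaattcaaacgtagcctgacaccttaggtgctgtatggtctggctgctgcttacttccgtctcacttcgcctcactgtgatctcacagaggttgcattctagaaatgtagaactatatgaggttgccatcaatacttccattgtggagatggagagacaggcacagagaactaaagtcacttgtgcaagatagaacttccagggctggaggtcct
LOC105378650: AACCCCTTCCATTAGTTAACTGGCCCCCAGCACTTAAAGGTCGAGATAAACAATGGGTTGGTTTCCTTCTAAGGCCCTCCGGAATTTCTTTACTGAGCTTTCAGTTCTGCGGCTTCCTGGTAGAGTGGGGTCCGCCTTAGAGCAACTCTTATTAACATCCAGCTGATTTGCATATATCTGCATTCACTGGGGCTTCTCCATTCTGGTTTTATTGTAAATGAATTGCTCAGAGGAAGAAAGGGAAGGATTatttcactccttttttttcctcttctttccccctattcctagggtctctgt
TRIM11-AS1: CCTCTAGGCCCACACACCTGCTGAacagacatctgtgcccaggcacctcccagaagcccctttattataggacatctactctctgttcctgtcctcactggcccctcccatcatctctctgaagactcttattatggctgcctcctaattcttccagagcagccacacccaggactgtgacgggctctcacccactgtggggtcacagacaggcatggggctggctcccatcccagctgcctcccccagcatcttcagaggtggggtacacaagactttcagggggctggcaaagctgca

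The peak at LOC105378650 (37767318 to 37767653) shared 249 bases with the window, and its summit lay 10 bases from the start. Its fold enrichment was 3.56, with 8 reads at the summit. The summit near LOC124903888 lay 414 bases from the start, with a fold enrichment of 2.58 and 9 reads, and that near TRIM11-AS1 lay 259 bases from the start, with 3.67 and 10 reads. None of the 3 peaks was significant after adjustment, with q-values of 0.776 at LOC105378650, 1.0 at LOC124903888 and 0.550 at TRIM11-AS1. The windows held 3 (LOC124903888), 4 (LOC105378650) and 1 (TRIM11-AS1) CpG dinucleotides, against a median of 14 over all 35116 promoters of 300 bases. The hexamer GCGCGC, a run of alternating G and C that reads alike on both strands, was in none of the 3 windows and in 18.8% of all promoters.

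Chromosome 10 held 0.650 peaks per Mb (0.521 to 0.802), the highest density of the 23 chromosomes with peaks. Chromosome 1 held 0.474 per Mb (0.392 to 0.568), and both chromosome X (0.493) and chromosome 22 (0.492) lay above it, so that chromosome 1 took place 4. Chromosome 19 followed with 0.444 per Mb (0.290 to 0.650), inside the interval of chromosome 1. The order of chromosomes X, 22, 1 and 19 was thus within counting error. The other chromosomes together held 0.267 per Mb (0.248 to 0.288). Chromosomes 1 and 10 made up 12.6% of the length and carried 22.5% of the peaks. All these lengths are whole chromosomes, including repeated DNA at and near the centromeres. How much of that length reads can be placed in was not examined.

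Per Mb, the short arm of chromosome 1 held more peaks than the long arm. The short arm held 73 peaks, 0.592 per Mb (0.464 to 0.744), and the long arm 45 peaks, 0.358 per Mb (0.261 to 0.480). The density of 1p was 1.65 times that of 1q (1.12 to 2.45). This interval takes the peaks as independent. Those of chromosome 1 were bunched (variance over the mean of 2.33 in 5 Mb bins, below), so it may be too narrow. The long arm contains a large block of repeated DNA next to the centromere. With the centromeric (acen) and variable (gvar) bands left out, 1q held 0.407 per Mb and the ratio fell to 1.48 (0.999 to 2.20), an interval that reached 1. On chromosome 10 the arms were closer. The short arm held 30 peaks, 0.754 per Mb (0.509 to 1.08), and the long arm 57 peaks, 0.606 per Mb (0.459 to 0.786), a ratio of 1.24 (0.771 to 1.97). Among all 46 chromosome arms, 10p stood at place 1, 10q at place 4, 1p at place 5 and 1q at place 12. Chromosomes 1 and 10 were selected for their density, so high places of their arms follow in part from that choice. The interval of 10p includes the densities of 22q (0.670 per Mb) and Xq (0.652 per Mb), so its place was within counting error.

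**Figure D1:**
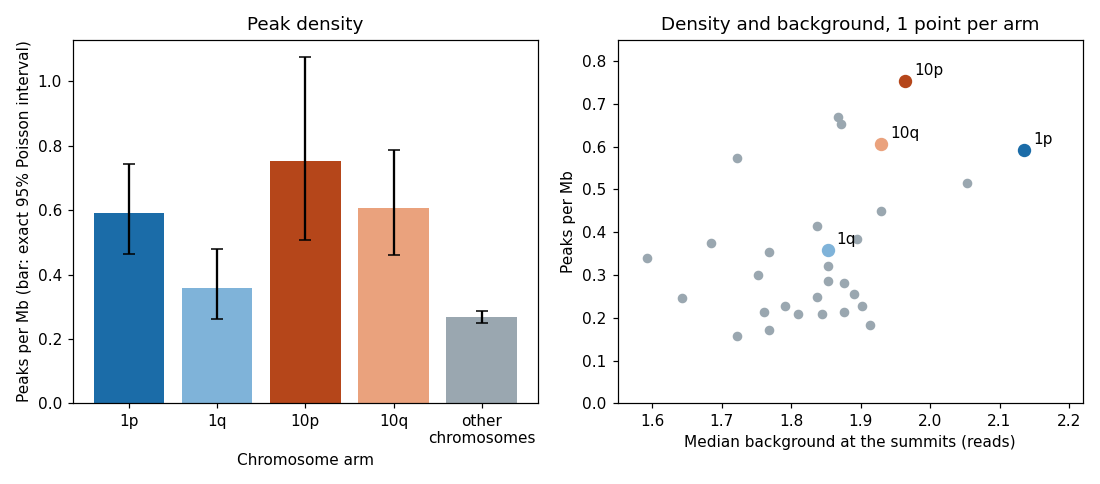
Left, peaks per Mb in 1p, 1q, 10p and 10q and over all other chromosomes, with exact 95% Poisson intervals as error bars. Right, peaks per Mb against the median background at the summits (reads) for the 30 arms with 10 or more peaks, where 1p has the highest background (2.14 reads) and 10p the highest density (0.754 per Mb).

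In fixed bins of 5 Mb, the 49 full bins of chromosome 1 held 2.41 peaks on average, with a median of 2 and a highest count of 11. The variance over the mean, which is 1 where peaks fall evenly and independently, was 2.33. On chromosome 1, 10 bins were empty, against 4.41 for even placement by the Poisson formula. Of these, 3 lay at centromeric or variable bands, and without the bins at such bands 7 of 44 were empty, against 3.22, with a variance over the mean of 2.21. On chromosome 10, the 26 full bins held 3.27 peaks on average, with a highest count of 7. There the variance over the mean was 1.09, and 2 bins were empty, against 0.989 for even placement. The peaks of chromosome 10 were thus many but spread much as even placement gives, whereas those of chromosome 1 were bunched. The number of peaks in a bin followed its number of protein-coding genes weakly, with a Spearman rho of 0.120 over 49 bins of chromosome 1 and of 0.396 over 26 bins of chromosome 10. These bins share 1 library, so both are descriptions.

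**Figure D2:**
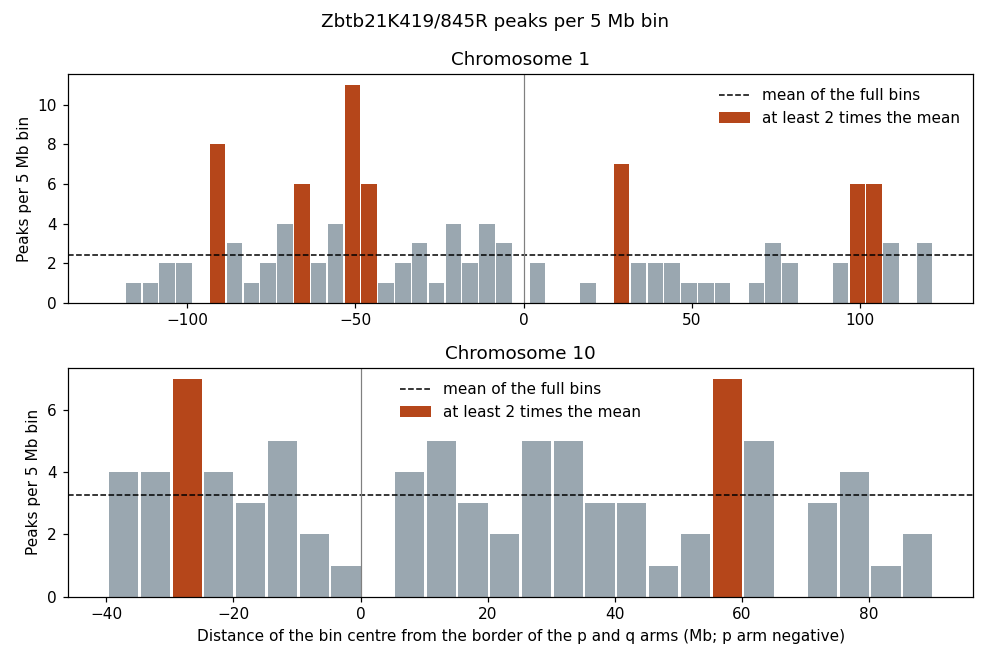
Peaks in each full 5 Mb bin of chromosomes 1 and 10, by distance of the bin from the border of the arms (Mb). Bins with at least 2 times the chromosome mean are coloured, 7 on chromosome 1 and 2 on chromosome 10, and the dashed lines mark the means of 2.41 and 3.27 peaks.

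The distance from one summit to the next was compared with even placement in the same way. Leaving out the gap over the centromere, the median of 116 gaps on chromosome 1 was 970.0 kb, where even placement with the same mean of 1967 kb gives 1363 kb, and the coefficient of variation was 1.36 (1 for even placement). Without every gap that spans a centromeric or variable band, the coefficient was 1.21 and the median 970.0 kb against 1277 kb for even placement, nearer to chromosome 10, where the coefficient was then 1.13. On chromosome 1, 10 gaps (8.62%, 4.21 to 15.3%) were under 100 kb, against 4.96% for even placement, a difference within counting error. The median of 85 gaps on chromosome 10 was 911.9 kb against 1000.1 kb for even placement, with a coefficient of variation of 1.11, and 6 gaps (7.06%, 2.63 to 14.7%) were under 100 kb, against 6.70%. The longest gap, 18063 kb, spanned most of the repeated block of 1q (variable band 1q12), between summits at 125183744 and 143246948. Whether reads can be placed in this block was not examined, so the gap need not be sequence that lacked peaks. The next longest gap, 12609 kb, ran from 203971090 to 216579825 on 1q. The longest on chromosome 10 was 9281 kb. The closest neighbours on chromosome 1 were the pair at 125180209 and 125183744, 3.54 kb apart, and a pair inside MIA3, 3.61 kb apart.

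**Figure D3:**
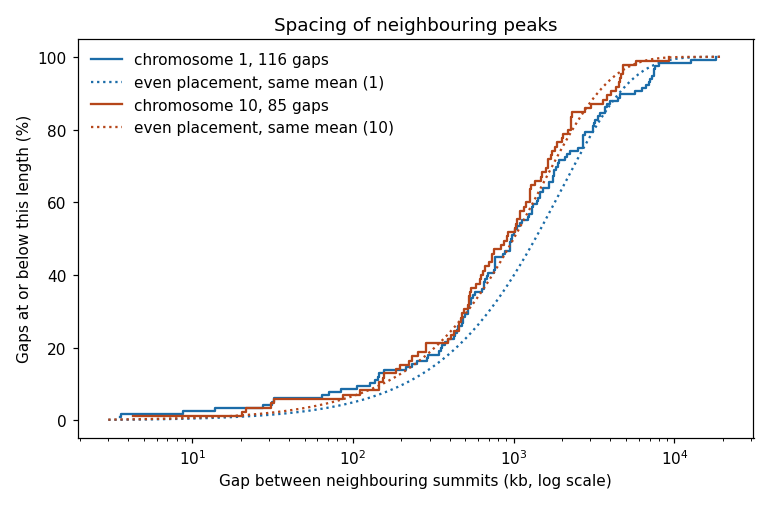
Cumulative share of gaps between neighbouring summits (kb, log scale) on chromosomes 1 (116 gaps) and 10 (85 gaps), without the gap over the centromere. Dotted lines show even placement with the same mean gap; the line of chromosome 1 lies to the left of its dotted line at the median (970.0 against 1363 kb) and crosses to the right of it at the longest gaps, and that of chromosome 10 lies closer to its own.

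Bins with at least 2 times the chromosome mean were joined into stretches of raised density. The stretches were selected on their counts, so no test was made of them. Chromosome 1 had 5 such stretches, which held 50 peaks (42.4% of the chromosome's peaks) in 35 Mb (14.1% of its length). Outside them, chromosome 1 held 0.318 per Mb (0.247 to 0.403). Chromosome 10 had 2 stretches with 14 peaks in 10 Mb, and outside them still held 0.590 per Mb (0.462 to 0.741). By the Poisson formula, even placement gives 4.75 such bins on chromosome 1, where 7 were found, and 1.27 on chromosome 10, where 2 were found.

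The largest stretch lay in 1p31.1, a dark band, from 70 to 80 Mb, and held 17 peaks with folds of 2.57 to 3.96. The whole band 1p31.1 held 20 peaks in 15.1 Mb, 1.32 per Mb (0.809 to 2.05). Of the 17 summits, 5 lay inside protein-coding genes. The peak in NEGR1, a neuronal cell adhesion gene, had a fold of 3.80, and that in SLC44A5, a choline transporter-like gene, 3.01. The sialyltransferase genes ST6GALNAC3 and ST6GALNAC5 held a peak each, with folds of 3.25 and 2.97, and NEXN, which encodes an actin-binding protein, held 1 with 3.16. The median background at the 17 summits was 2.13 reads, with 2 summits at the lowest background of the list, 1.53 reads.

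The stretch from 220 to 230 Mb (1q41 to 1q42.13) held 12 peaks, 6 of them inside protein-coding genes. The peak in BPNT1, a nucleotidase gene of sulfate metabolism, had the highest fold of the stretch, 4.75, with 11 reads and a q-value of 0.0702. MIA3, whose product loads collagen for export from the endoplasmic reticulum, held 2 peaks with folds of 3.51 and 3.61. DNAH14 (a dynein heavy chain), SNAP47 (a SNARE family protein) and TRIM11 held 1 peak each, with folds of 2.98, 2.95 and 3.67.

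The stretch from 30 to 35 Mb (1p35.2 to 1p35.1) held 8 peaks, the first 5 within 595.7 kb. The BTB zinc finger gene ZBTB8B held a peak with a fold of 3.03, and ZSCAN20 held 1 with 3.75. A peak with a fold of 2.98 lay where ZNF362, AZIN2 and TRIM62 overlap in the annotation, so it cannot be given to any 1 of them. NKAIN1 held a peak with a fold of 3.40. The median background of this stretch was 2.61 reads, the highest of the 7 stretches. The others ran from 1.81 reads (95 to 100 Mb of chromosome 10) to 2.43 reads (55 to 60 Mb of chromosome 1). The median over the other chromosomes was 1.84 reads.

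The stretch from 55 to 60 Mb held 6 peaks, including that in C8A, a complement component (3.35), and both peaks of DAB1, an adaptor of reelin signalling (3.58 and 4.19). The stretch from 150 to 155 Mb held 7 peaks, with PRPF3, a splicing factor (3.84), and PI4KB, a lipid kinase (4.11), as the only protein-coding genes with a summit inside among 161 in the stretch. Its last peak, with a fold of 4.47, lay 1.53 kb outside S100A7, a skin gene of the epidermal differentiation complex.

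The stretches of chromosome 10 held 7 peaks each. From 10 to 15 Mb (10p14 to 10p13), FRMD4A and FAM107B held peaks with folds of 3.77 and 3.51, and the non-coding gene LOC105376419, 26.5 kb long, held 2 (2.92 and 3.68). From 95 to 100 Mb (10q24.1 to 10q24.2), 6 of the 7 summits lay inside protein-coding genes. CRTAC1 held a peak with a fold of 3.96, CC2D2B 1 with 3.25, HPSE2 (heparanase 2) 1 with 3.17 and the metalloprotease gene TLL2 1 with 3.03. A peak with a fold of 3.22 lay where ENTPD7 and COX15, a gene of heme A synthesis, overlap.

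Shorter groups were sought as runs of 4 or more peaks with every gap under 500 kb. There were 3 runs, all on 1p. The run in 1p35.2 held 5 peaks. That in 1p32.3 held 4 peaks in 795.7 kb, among them those in SSBP3 and MROH7, with folds of 3.20 to 3.49. That in 1p31.1 held 4 peaks in 786.3 kb near LINC01360, with folds of 2.58 to 3.41. No run was found on chromosome 10. With gaps under 250 kb there were 0 runs on either chromosome. With gaps under 1 Mb, chromosome 1 had 7 and chromosome 10 had 4, so these counts rest on the limit of 500 kb.

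The fold enrichment overlapped widely between the arms. Its median was 3.26 on 1p (interquartile range 3.03 to 3.58), 3.46 on 1q (3.16 to 3.80), 3.19 on 10p (3.06 to 3.58) and 3.29 on 10q (3.03 to 3.61), against 3.45 (3.12 to 3.80) on the other chromosomes. The 95% intervals of the medians overlapped between 1p (3.17 to 3.46) and 1q (3.18 to 3.61). A fold of 4 or more was reached by 5 of the 73 peaks of 1p (6.85%), 8 of 45 on 1q (17.8%), 3 of 30 on 10p (10.0%) and 6 of 57 on 10q (10.5%), against 12.9% elsewhere. For a single peak at the lowest background, 1 read more or fewer moved the fold by 0.396. Peaks of 1 library are not replicates, so no p-value is given.

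**Figure D4:**
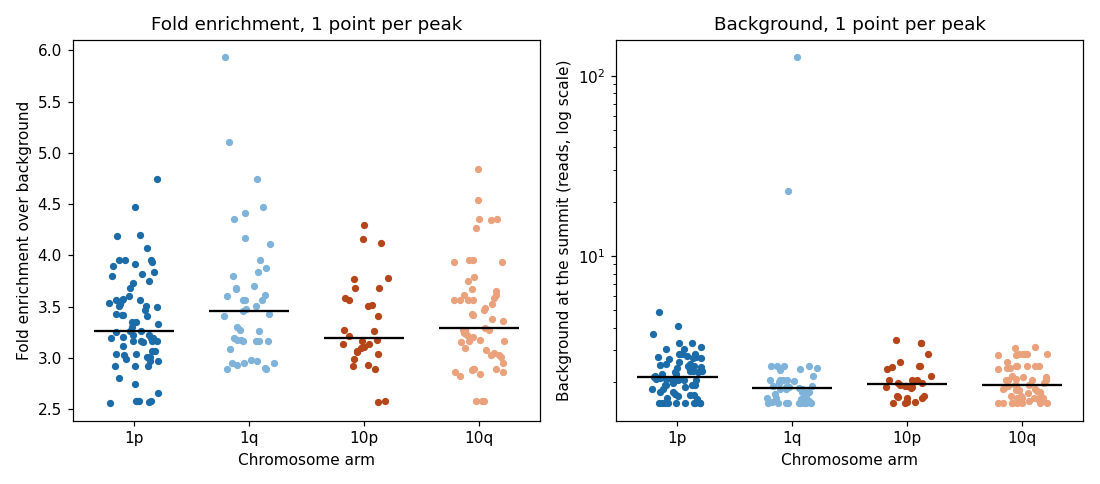
Fold enrichment (left) and background in reads (right, log scale) of each of the 205 peaks by arm, with the median as a bar. The folds overlap between the arms (medians 3.19 to 3.46), and the points far above the rest on the right are the 2 peaks in 1q12.

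The density was also taken on either side of the list's median fold of 3.41. Among peaks at or above it, 1p held 0.251 per Mb (0.171 to 0.357), 1q 0.191 (0.122 to 0.284), 10p 0.276 (0.138 to 0.495) and 10q 0.277 (0.181 to 0.405), against 0.139 (0.125 to 0.154) on the other chromosomes. Among peaks below it, 1p held 0.340 per Mb (0.245 to 0.460), 1q 0.167 (0.104 to 0.256), 10p 0.477 (0.287 to 0.745) and 10q 0.330 (0.224 to 0.468), against 0.128 (0.115 to 0.143). Since the chromosomes were selected on their density, these values are a description and support nothing about it.

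The local background is set here beside the density. The number of reads at each summit and the background the caller set against it were solved from the fold and the p-value. The sources used here do not say whether this background came from reads around the peak or from a control library. For 28 of the 205 peaks it was 1.53 reads, the lowest background of the list. The median background was 2.14 reads on 1p, the highest of the 30 arms with 10 or more peaks. It was 1.96 on 10p (place 3) and 1.93 on 10q (places 4 and 5, tied with 6q). On 1q it was 1.85 (places 14 to 16, tied with 12q and 13q), against 1.84 over the other chromosomes. The upper quartile was 2.58 reads on 1p, 2.41 on 10p and 2.45 on 10q, against 2.05 on 1q and 2.05 elsewhere. Over the 30 arms, density and median background had a Spearman rho of 0.368, and of 0.144 over the 26 arms other than these 4. The next dense arms of other chromosomes were spread over the order of backgrounds. They were 22q (0.670 per Mb) at place 13, Xq (0.652 per Mb) at place 12 and 19p (0.573 per Mb) at place 27. Arm 17q (0.516 per Mb) stood at place 2, and 6q (0.450 per Mb) shared places 4 and 5 with 10q. The medians of reads at the summit were 10 on 1p and 9 on 1q, 10p and 10q. The part of the background in the density was not tested.

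Along chromosome 1, windows of 20 Mb from 20 to 120 Mb had median backgrounds of 1.99 to 2.3 reads. The window from 60 to 80 Mb had the highest density, 1.15 per Mb, with a background of 2.16 reads. The window from 200 to 220 Mb held 4 peaks, 3 of them at the lowest background of 1.53 reads, and that from 0 to 20 Mb also held 4, with a median of 1.61 reads. On chromosome 10 the medians lay between 1.67 and 2.09 reads. The window from 0 to 20 Mb was the densest of chromosome 10, with 0.95 peaks per Mb and a background of 1.99 reads. Over the 18 windows with 4 or more peaks, density and background had a Spearman rho of 0.589, given as a description since the windows share 1 library and its depth.

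By Giemsa band, chromosome 1 had the highest density in the darkest bands (gpos100), with 33 peaks and 0.838 per Mb (0.577 to 1.18). Light bands (gneg) held 0.446 per Mb (0.328 to 0.593), and these intervals overlapped at their ends. Of these 33 peaks, 20 were those of 1p31.1. Without this band the darkest bands held 0.535 per Mb (0.285 to 0.915), an interval that includes the density of the light bands. On chromosome 10 the highest density was in the next darkest class (gpos75), with 17 peaks and 0.939 per Mb (0.547 to 1.5). The light bands of chromosome 10 held 0.695 (0.499 to 0.943) and the darkest 0.458 (0.237 to 0.800), and these intervals overlapped. The other chromosomes held 0.233 per Mb in gpos100 and 0.317 in gneg.

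Genes took up 58.1% of the 2 chromosomes, and 128 of the 205 summits (62.4%, 55.4 to 69.1%) lay inside one. Protein-coding genes covered 46.1% and held 103 summits (50.2%, 43.2 to 57.3%). The share in any gene was 52.1% on 1p, where genes covered 62.0%, and 68.9% on 1q (53.4 to 81.8%), where they covered 52.5%. It was 66.7% on 10p (47.2 to 82.7%) with 59.2% covered, and 68.4% on 10q (54.8 to 80.1%) with 60.2% covered. The intervals of 10p and 10q, and that of 1p, which reached 63.9%, include the covered length. On 10q, protein-coding genes held 61.4% of the summits (47.6 to 74.0%) and covered 48.5%. On 1q they held 51.1% (35.8 to 66.3%) and covered 40.5%. The covered length of 1q includes the block of repeated DNA. Without the centromeric and variable bands, genes covered 62.3% of 1q and held 31 of 43 summits (72.1%, 56.3 to 84.7%), an interval that includes the covered length. The median distance to the nearest start in the promoter table was 33.6 kb, and 12 of the 205 summits (5.85%) lay within 3 kb of one, where 6.14% of the length lies. Of these, 7 (3.41%) lay within 3 kb of the start of a protein-coding gene, where 4.1% of the length lies, so both counts were close to what the length gives. Summits inside genes were not divided into exonic and intronic ones.

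The summits marked 100 of the 2795 protein-coding genes annotated on these chromosomes (3.58%). The genes marked were long, with a median length of 135.6 kb against 26.3 kb for all 2795, and 20 of the 46 genes over 500 kb held a summit. These long genes covered 9.78% of the length and held 23 summits (11.2%, 7.25 to 16.4%), close to what their length gives. Of the protein-coding genes, 8 held 2 summits. Besides DAB1 and MIA3, they included MROH7 (3.22 and 3.33) on chromosome 1. On chromosome 10 they included CUBN, the vitamin B12 receptor cubilin (2.57 and 3.68), MALRD1 (3.18 and 3.13, 4.28 kb apart) and PCDH15, a cadherin of hair cells (3.03 and 3.28). The non-coding genes with 2 summits were LOC105376360 and LOC105376387, besides LOC105376419 and the readthrough gene MROH7-TTC4.

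Gene groups were counted in the same way, beside the number that their length and the chromosome's density give. A list of 22 long genes was drawn up around cell adhesion and neurons, though some of them, such as CAMTA1, have other roles. Of these, 9 held a summit, namely AGBL4, CAMTA1, CTNNA3, DAB1, ESRRG, GRID1, NEGR1, PCDH15 and PRKG1. They held 11 summits, against 10.9 by length. Of 10 ZBTB genes only ZBTB8B held one (0.181 by length), of 38 ZNF genes only ZNF362, whose peak also lies in AZIN2 and TRIM62 (1.00 by length), and of 21 corepressor and chromatin genes only PCGF6, a Polycomb subunit, with a fold of 3.05 (1.17 by length). No summit lay inside any of 62 olfactory receptor (OR) genes, 14 CYP genes, 17 S100 genes or 19 LCE genes of the skin barrier. The same held for 16 histone genes of the H2, H3 and H4 families. It also held for 6 genes of a list drawn up around cohesin and SUMO, not all of which belong to either. The lengths of these groups give 0.352 summits for the OR genes and fewer for each of the others, so a count of 0 is within counting error. HOX genes are not annotated on these chromosomes.

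Of the 205 peaks, 6 (2.93%, with an interval of 1.08 to 6.26%) passed a q-value of 0.05, against 2.96% of the whole list, so the share was that of the list. Of these, 4 lay among the 45 peaks of 1q (8.89%, 2.48 to 21.2%), an interval that also includes the share of the list. The peaks at 125180073 to 125180392 and 125183641 to 125183868 in 1q12, beside the centromere, had 105 and 472 reads over backgrounds of 23.0 and 126.9 reads, and q-values of 1.5e-29 and 2.84e-114. No other summit of these chromosomes had over 17 reads. The peak from 143246824 to 143247216 in 1q21.1 had the highest fold of the list, 5.93, with 14 reads at the lowest background. It lay close to the far border of the variable band 1q12, at 143.2 Mb, and 655.4 kb from the nearest protein-coding gene. The peak from 202664145 to 202664338 in SYT2, a synaptic vesicle gene, had 5.11 with 12 reads and a q-value of 0.0135. The remaining 2 were a peak from 67030001 to 67030192 in SLC35D1, a nucleotide sugar transporter gene (fold 4.20, 16 reads, q-value 0.0286), and 1 from 115537754 to 115537982 in ATRNL1 (4.84, 12 reads, 0.0312). The stretches of raised density held 0 of the 6 among their 64 peaks, an interval of 0 to 5.60% that includes the share of the list.

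The peaks with the highest folds on 1p lay at 13402881 to 13403095, 7.46 kb outside PRAMEF20, a member of a family of near-identical genes (4.75, 11 reads), and in CAMTA1, a transcription activator (4.47, 11 reads). On chromosome 10 the highest folds after that in ATRNL1 were 4.54 for a peak at 80915758 to 80916062, 269.4 kb outside SH2D4B, and 4.35 for peaks in ANXA11, an annexin gene, and at 130285252 to 130285514 in no gene. A peak at 90642951 to 90643222, 97.7 kb outside HTR7, a serotonin receptor gene, also had 4.35, with 14 reads and a q-value of 0.0521.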

How the data were processed

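The authors sheared crosslinked HEK293T chromatin enzymatically, carried out the immunoprecipitation and called peaks, and 1 deposited list, that of the mutant, was used here. The submitters' processing notes name cutadapt 2.5, Bowtie2 2.3.5.1, MACS2 2.1.2 and HOMER 4.10.4 and the build hg38. Caller settings and a control are not given in the sources used here. The deposited columns are a score (10 times the −log10 p-value), a fold enrichment (a ratio to the local background), a −log10 p-value, a −log10 q-value and the offset of the summit. A total read count was not used, so depth is known only as reads at summits. These were solved from fold and p-value (pseudocount 1, Poisson tail, tolerance 0.0005), which succeeded for all 913 peaks. The solving and the search for stretches were tested on simulated data.

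Summits were placed in hg38 arms and bands of the R package circlize 0.4.16 (R 4.3.3) and in RefSeq genes of GRCh38.p14. Bins were 5 Mb and counted only when full. Intervals are exact Poisson or binomial, and order statistics for medians. Even placement was computed by formula. Calculations used scipy 1.17.1, numpy 2.4.6 and pandas 2.3.3 under Python 3.11.15, and plots matplotlib 3.10.9. Named are the 5 highest folds of each chromosome, peaks with a q-value of at most 0.05, genes with 2 or more summits, coding genes in the 3 largest stretches per chromosome, peaks at promoters, and list members. Peaks and genes of the smaller stretches of chromosome 1, LOC105376419, S100A7 and the genes of the runs were named after their values were seen. Some genes that this rule names are not reported here. Members and lists were chosen with earlier results of these data known.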

Additional observations from a re-analysis of the deposited data

How the results depend on the processing

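With 1 library, no replicate could be left out. No paired analysis was possible because the labels give 1 sample. Of 70 alternatives over 21 values, 48 stayed within the interval of the value reported or within 1.5 times a count or ratio, and 22 did not. Peaks with a q-value of at most 0.05 left 0.0201 per Mb on chromosome 1 and 0.00747 on chromosome 10, and peaks at or above the list's median fold left 0.221 and 0.277, with 0.251 on 1p, 0.191 on 1q, 0.276 on 10p and 0.277 on 10q. These cutoffs leave fewer peaks by construction. The q-value cutoff left 1 of 87 peaks on chromosome 10 (1.15%), in 133.8 Mb, and 21 of 708 on the other chromosomes (2.97%), in 2648 Mb. At this cutoff chromosome 10 was thus not denser than the other chromosomes, though its density rests on 1 peak. On chromosome 1 the cutoff left 5 of 118 peaks (4.24%), and the neighbouring pair in 1q12 is among them. Without the stretches of raised density, an alternative chosen after seeing the data, chromosome 1 held 0.318 per Mb. The variance over the mean of chromosome 1 was 1.54 with 2 Mb bins, 3.74 with 10 Mb bins and 1.76 with bins shifted by 2.5 Mb, above 1 in each, and that of chromosome 10 lay between 0.844 and 1.09. Chromosome 1 had 2 stretches at 3 times the mean and 17 with 2 Mb bins. Chromosome 10 had 5 stretches at 1.5 times the mean, 0 at 3 times, 1 with bins shifted by 2.5 Mb, 7 with 2 Mb bins and 0 with 10 Mb bins, so its 2 stretches rest on where the bins start and on their width. Runs of 4 peaks numbered 0 on chromosome 1 with gaps under 250 kb and 7 with gaps under 1 Mb, where chromosome 10 had 4. Protein-coding genes alone held 50.2% of the summits. The background windows, the arms beside it, the band 1p31.1, the windows at starts with their length, and the gaps, empty bins and gene shares without centromeric and variable bands were also chosen after seeing the data. Summits held 9 reads in the median, so single peaks are imprecise.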

Other observations

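The highest background outside 1q12 on these chromosomes, 4.93 reads, was that of a peak inside NBPF1 on 1p, a member of a family of near-identical genes, with 17 reads and a fold of 3.04.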
